A study of Homo sapiens with 9 samples.

Results

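Transcripts of vasoactive peptides, their receptors and a processing enzyme were followed in 9 genes: EDN1 and ADM (peptide precursors), NPR1, NPR2 and NPR3 (natriuretic peptide receptors), EDNRA and EDNRB (endothelin receptors), ADRA2A (an adrenergic receptor) and ECE1 (an endothelin-converting enzyme). They were listed by symbol, and each was read from the probeset with the highest mean over the 9 arrays. The platform's annotation table names a probeset for 7 of the 9, each with 1 probeset, among 14884 genes in all. NPR2 and EDNRA have no named probeset there and were not analysed here. The set was assembled with earlier results of these data known: EDN1 and NPR3 were chosen by their measured log2 changes in the mimic arrays, and ADRA2A was also among the genes called there. The changes of the members in the mimic arrays are therefore given as a description, and only the comparison of the controls, which played no part in the choice, is given as a test.

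The cells were ZR-75-1, an established human breast cancer line that carries the estrogen receptor. All groups received the lipid reagent Lipofectamine RNAiMAX, in 3 arrays each: with 50 nM of a mimic of mature miR-150-5p, with 50 nM of a negative control RNA of nonspecific sequence, or with the lipid alone (mock). RNA was taken at 48 h and measured on Affymetrix Human Gene 2.0 ST arrays, with values on the log2 scale after RMA, a method that corrects background, equalises arrays and summarises the probes of a probeset. The transfections are described as triplicates of 1 cell line, with no statement that they were separate cultures, so errors and p-values measure only how far these samples differ among themselves, and that spread may be technical. In RNA from bulk cultures, fewer cells making a transcript and less of it per cell cannot be told apart.

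Endothelin-1 is a short peptide that constricts vessels. It is cut from a longer precursor, the last step by endothelin-converting enzyme, and acts on receptors coupled to G proteins. Natriuretic peptides relax vessels through receptors with a guanylyl cyclase domain, while the clearance receptor encoded by NPR3 lacks that domain and takes the peptides up for degradation. Both systems are best known from vessels, heart and kidney, and epithelial tumour cells also make endothelin-1.

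Median log2 intensity over all probesets lay between 4.22 and 4.27 on the 9 arrays. Mock replicate 3 correlated with its own group (mean r = 0.9935 across genes) no better than with the other groups (0.9937), and mimic replicate 2 likewise (0.9940 and 0.9941). All 10 measured markers of luminal breast cells, among them ESR1, GATA3 and KRT18, were above the median intensity of all genes (5.44). Their mean log2 intensity was 9.98 to 10.1 in mimic, 9.83 to 9.92 in negative control and 9.87 to 10.0 in mock arrays. Of the 10, 1 rose, ESR1, and 0 fell in each mimic comparison. Over all genes 0.202% rose and 0.349% fell against the negative control, and 0.168% and 0.134% against mock. ESR1, the estrogen receptor gene, had 9.04, 9.02 and 8.98 in mimic, 8.50, 8.52 and 8.64 in negative control, and 8.52, 8.55 and 8.63 in mock arrays. Its change was 0.46 ± 0.069 (limma adjusted p = 0.0295) against the negative control and 0.45 ± 0.069 (adjusted p = 0.0406) against mock, in the same mimic arrays in which EDN1 and ADRA2A were higher and NPR3 lower. Its part in those differences was not tested. ESR1 was picked out after its values were seen, and its call was not followed under other processing. XBP1, a transcription factor of secretory cells, was also higher on every mimic array than on every control array (0.38 and 0.31) and did not pass. Over all genes 8.42% were above in this way against the negative control and 7.21% against mock. In each comparison 3 of the 10 markers had a negative change, KRT18 and KRT19 in both. The median change of the 10 was 0.13 against the negative control and 0.025 against mock. Of 8 measured endothelial markers 7 were below the median intensity of all genes, PECAM1, KDR, TIE1 and VWF with means of 2.84, 3.35, 3.48 and 3.54. The table has no detection call, so a dim gene may be at background.

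EDN1 and ADRA2A were higher and NPR3 was lower in mimic arrays than in both controls. EDN1 was 1.58-fold higher than in negative control arrays and 1.65-fold higher than in mock arrays, ADRA2A was 1.43-fold and 1.45-fold higher, and NPR3 was 2.03-fold and 1.91-fold lower. These 3 of 7 measured members were among the genes with an adjusted p under 0.05 in limma's test over all genes, which called 0.551% of genes against the negative control (0.202% higher, 0.349% lower) and 0.302% against mock (0.168% higher, 0.134% lower). EDN1 and NPR3 were chosen by these values, so nothing is read from the count. The member just inside the threshold was EDN1 (limma adjusted p = 0.0417 against the negative control and 0.0429 against mock). The uncalled members with the lowest adjusted p were far from it: ECE1 against the negative control (0.234) and ADM against mock (0.561). Both comparisons use the same 3 mimic arrays. In the comparison of negative control with mock 0 of 7 members passed limma's test, as did 0% of all genes, while 622 genes had an unadjusted p under 0.05.

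The sequences upstream of these 3 genes are shown because their transcripts were the ones that differed between mimic and control arrays. They are the 250 bases before the start of transcription that lies farthest downstream in the table, of 3 starts listed for EDN1, 1 for ADRA2A and 2 for NPR3, from RefSeq (GRCh38.p14). All 9 genes have an entry in that table. Each is printed 5′ to 3′, and capitals mark matches, on either strand, to 1 of 5 motifs. The letters of the core promoter box are TATAAA. Those of the motif of GATA factors are AGATAA, those of the AP-1 motif TGACTNA, and those of the hypoxia response element's core ACGTG. Those of 1 arm of the estrogen response element are GGTCA, and the whole element was not searched for. These motifs were picked with the results known.
EDN1, chr6:12290111-12290360, plus strand: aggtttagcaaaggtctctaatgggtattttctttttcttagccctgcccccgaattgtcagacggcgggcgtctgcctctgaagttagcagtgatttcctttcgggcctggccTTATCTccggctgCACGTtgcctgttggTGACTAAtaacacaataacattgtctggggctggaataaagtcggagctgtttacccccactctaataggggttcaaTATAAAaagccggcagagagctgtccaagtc
ADRA2A, chr10:111076779-111077028, plus strand: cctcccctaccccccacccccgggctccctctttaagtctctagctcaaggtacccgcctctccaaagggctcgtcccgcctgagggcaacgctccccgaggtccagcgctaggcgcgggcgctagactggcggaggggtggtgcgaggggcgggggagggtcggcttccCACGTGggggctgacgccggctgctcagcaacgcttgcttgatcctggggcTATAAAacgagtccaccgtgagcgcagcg
NPR3, chr5:32710399-32710648, plus strand: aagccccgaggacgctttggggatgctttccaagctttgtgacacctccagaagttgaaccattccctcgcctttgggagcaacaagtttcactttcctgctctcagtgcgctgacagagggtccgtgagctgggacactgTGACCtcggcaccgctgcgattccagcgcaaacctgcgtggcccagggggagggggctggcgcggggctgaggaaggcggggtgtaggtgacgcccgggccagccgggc

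The EDN1 window held a TATA box from 31 to 26 bases before the start, an AP-1 match from 108 to 102, a hypoxia core from 123 to 119 on the minus strand and a GATA match from 136 to 131 on the minus strand. The ADRA2A window held a TATA box from 29 to 24 bases before the start, and the hypoxia core on both strands, from 79 to 75 and, overlapping it, from 80 to 76. The NPR3 window held 1 match, to the letters of 1 arm of the estrogen response element, from 109 to 105 on the minus strand. Over 35116 windows of the same length, 10.7% held the TATA box letters, 9.17% the GATA motif and 9.8% the AP-1 motif. The hypoxia core was in 18.5% of them and the arm of the estrogen response element in 32.6%. A match describes the letters only, and no binding was measured.

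Among the peptide precursors, EDN1 encodes the precursor of endothelin-1. Its log2 intensity was 8.52, 8.25 and 8.19 in mimic replicates 1, 2 and 3. It was 7.81, 7.63 and 7.54 in the negative control replicates, and 7.74, 7.59 and 7.46 in the mock replicates. Every mimic array was above every control array, mimic replicate 1 the highest, while the control groups overlapped in part. The means were 8.32 ± 0.18 in mimic, 7.66 ± 0.14 in negative control and 7.60 ± 0.14 in mock arrays (SD, n = 3 each). The log2 change was 0.66 ± 0.11 (SE, 95% interval 0.41 to 0.92) against the negative control and 0.72 ± 0.11 (0.47 to 0.98) against mock. Negative control and mock differed by 0.062 ± 0.11 (-0.19 to 0.32; limma adjusted p = 0.981).

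The call of EDN1 held in 5 of 16 alternatives against the negative control and in 4 of 16 against mock. Among the fits that leave out 1 array it held only against the negative control and without mock replicate 3. Without mimic replicate 1 the change was 0.56 against the negative control and 0.62 against mock, and over the fits without each array it lay between 0.56 and 0.74 and between 0.62 and 0.80. The 8 endothelial markers had a mean log2 intensity of 4.10 to 4.21 in mimic, 3.98 to 4.09 in negative control and 3.97 to 4.07 in mock arrays. Against the negative control 7 of the 8 had a positive change and 0 passed, PECAM1 having the lowest p (0.47 ± 0.17, limma adjusted p = 0.301). The median change over all genes was 0.011. ESAM, the only 1 of the 8 above the median intensity, went the other way. ESAM was lower on every mimic array than on every control array (-0.27 against the negative control and -0.21 against mock). PECAM1 was higher on every mimic array than on every control array (0.47 and 0.59), at a low intensity. Over all genes the arrays did not overlap for 16.4% against the negative control and 12.7% against mock. The part of these 8 markers in the EDN1 difference was not tested.

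ADM encodes adrenomedullin, a peptide that dilates vessels and a well-known gene of the hypoxia response. Its log2 intensity was 6.25, 6.27 and 6.25 in mimic, 6.25, 6.25 and 6.29 in negative control, and 6.12, 5.98 and 6.25 in mock arrays. Mimic and negative control arrays overlapped, and mock replicates 1 and 2 were lower than the other 7 arrays. The table gives 1 identical value, 6.25083, on 4 of the 9 arrays, spread over all 3 groups, so the spread of this gene (SD 0.0091 in mimic arrays) rests on few distinct values. The change was -0.0060 ± 0.077 against the negative control (SE, 95% interval -0.18 to 0.17) and 0.14 ± 0.077 against mock (-0.034 to 0.31). Negative control and mock differed by 0.14 ± 0.077 (-0.028 to 0.32, limma adjusted p = 0.976).

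Among the receptors, NPR3 encodes the natriuretic peptide clearance receptor. Its log2 intensity was 5.97, 6.16 and 6.14 in the mimic replicates. It was 7.20, 7.03 and 7.12 in negative control replicates and 6.97, 6.86 and 7.25 in mock replicates. The highest mimic array lay well below the lowest control array, and the mock arrays enclosed the negative control arrays. The means were 6.09 ± 0.10 in mimic, 7.11 ± 0.085 in negative control and 7.03 ± 0.20 in mock arrays (SD, n = 3 each). The change was -1.02 ± 0.11 (SE, 95% interval -1.26 to -0.78) against the negative control and -0.94 ± 0.11 (-1.18 to -0.70) against mock. This was the largest change in either direction among the 7 measured members in both comparisons. Negative control and mock differed by 0.087 ± 0.11 (-0.15 to 0.33, limma adjusted p = 0.976).

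The NPR3 call against the negative control held in 14 of 16 alternatives. It was lost without mimic replicate 1, where the change was -0.97 (limma adjusted p = 0.0552), and when all probesets were tested. Against mock it held in 6 of 16, and of the 9 fits that leave out 1 array it held in those without negative control replicate 2 or mock replicate 2, with changes between -1.02 and -0.82 over the 9.

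NPR1 encodes the guanylyl cyclase receptor for atrial and B-type natriuretic peptides. Its values were 4.26, 3.96 and 3.88 in mimic, 3.80, 3.81 and 3.96 in negative control, and 4.04, 3.90 and 3.95 in mock arrays. All 3 groups overlapped, and mimic replicate 1 was the highest. The change was 0.18 ± 0.10 (SE, 95% interval -0.055 to 0.40) against the negative control and 0.066 ± 0.10 (-0.16 to 0.30) against mock, and neither passed. Negative control and mock differed by -0.11 ± 0.10 (-0.34 to 0.12, limma adjusted p = 0.976). The gene was dim: 27.1% of genes had a lower mean. NPR1 was the only cyclase receptor of the family that was measured, at an intensity where a change may not be detectable.

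EDNRB encodes the endothelin B receptor, which binds all endothelins and in vessels also clears endothelin-1. Its values were 3.60, 3.24 and 3.51 in mimic, 3.26, 3.43 and 3.46 in negative control, and 3.46, 3.56 and 3.46 in mock arrays. The groups overlapped, and 3 of the 9 arrays held 1 identical value, 3.46098. The change was 0.066 ± 0.10 (SE, 95% interval -0.16 to 0.29) against the negative control and -0.043 ± 0.10 (-0.27 to 0.18) against mock. The controls differed by -0.11 ± 0.10 (-0.34 to 0.12, limma adjusted p = 0.976). Its mean was above that of 18.5% of genes, so whether these cells have EDNRB transcript at all cannot be told from this table.

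ADRA2A encodes the alpha-2A adrenergic receptor, which binds adrenaline and noradrenaline and lowers cyclic AMP. Its log2 intensity was 8.22, 8.24 and 8.22 in mimic arrays. It was 7.57, 7.79 and 7.76 in negative control arrays and 7.64, 7.72 and 7.70 in mock arrays. The mimic arrays lay close together and above all control arrays, and the negative control arrays enclosed the mock arrays. The means were 8.23 ± 0.0098 in mimic, 7.70 ± 0.12 in negative control and 7.69 ± 0.042 in mock arrays (SD, n = 3 each). The change was 0.52 ± 0.075 (SE, 95% interval 0.35 to 0.69) against the negative control and 0.54 ± 0.075 (0.37 to 0.71) against mock. Negative control and mock differed by 0.018 ± 0.075 (-0.15 to 0.19, limma adjusted p = 0.992).

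The call of ADRA2A held in 6 of 16 alternatives against the negative control and in 4 of 16 against mock. Of the fits that leave out 1 array it held in those without mock replicate 2 or 3, against the negative control only. The change itself varied little over these fits, from 0.45 (without negative control replicate 1) to 0.56 against the negative control and from 0.52 to 0.55 against mock.

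ECE1 encodes the membrane metalloprotease that releases endothelin-1 from its precursor. Its log2 intensity was 7.94, 7.97 and 7.62 in mimic, 8.20, 8.15 and 8.08 in negative control, and 8.01, 8.01 and 7.98 in mock arrays. The 3 groups did not overlap: negative control arrays were the highest and mimic arrays the lowest, mimic replicate 3 standing well below the others. The change was -0.30 ± 0.095 (SE, 95% interval -0.51 to -0.087; limma adjusted p = 0.234) against the negative control and -0.16 ± 0.095 (-0.37 to 0.054; adjusted p = 0.591) against mock. Negative control and mock differed by 0.14 ± 0.095 (-0.072 to 0.35, limma adjusted p = 0.976). Neither change in the mimic arrays passed, and without mimic replicate 3 they were -0.19 and -0.047. The missing call does not show that the enzyme's transcript was unchanged. The interval against the negative control lay below 0, but it is not adjusted for the number of genes. In that comparison 1871 of 14884 genes had an unadjusted p under 0.05 in limma's test. Against mock the interval included 0.

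**Figure D1:**
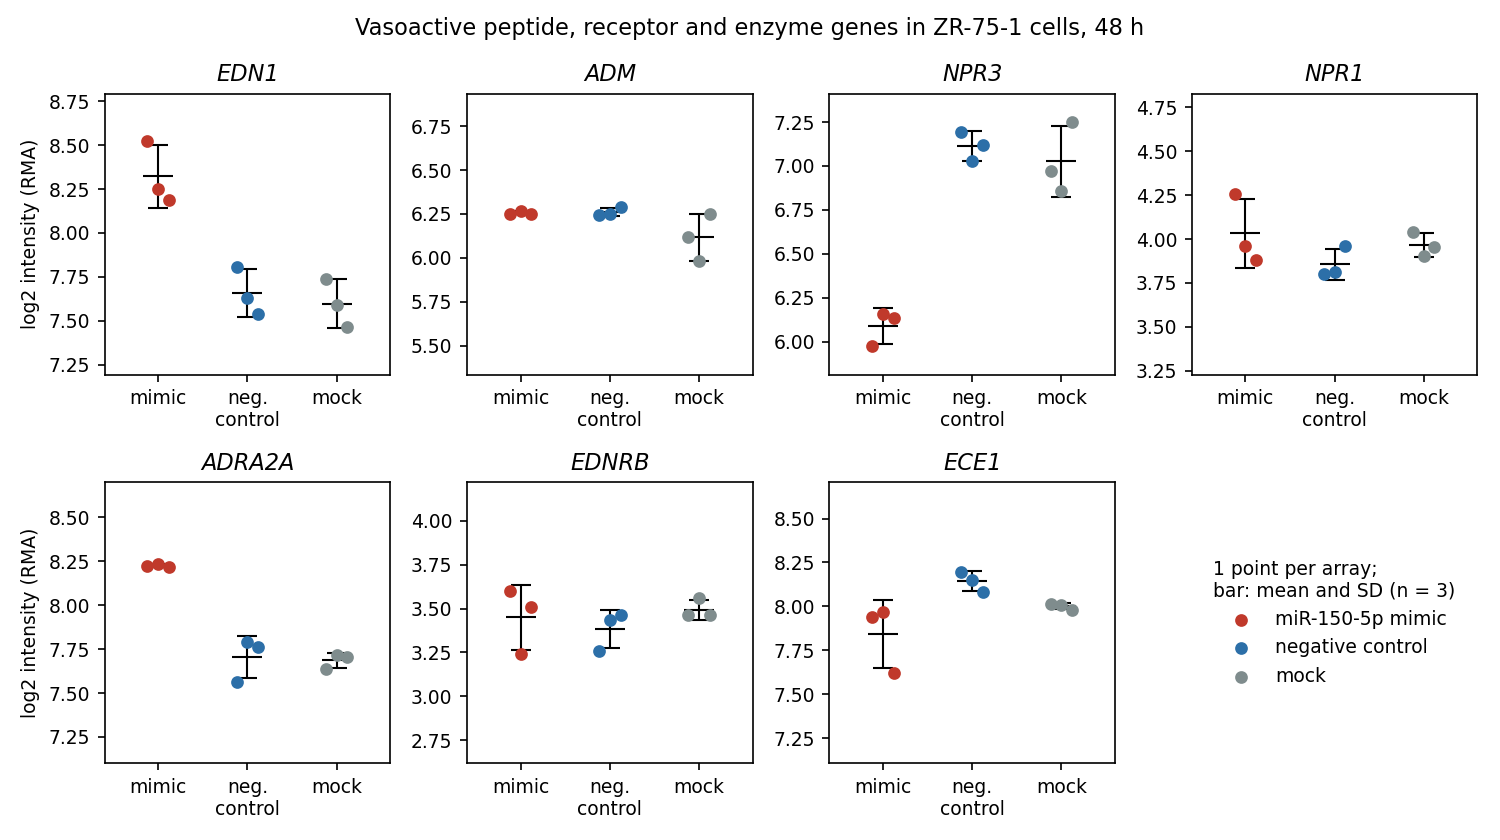
Log2 intensity (vertical axis, 1.6 log2 units in every panel) of the 7 measured genes in mimic, negative control and mock arrays. Points are arrays, and bars are the mean and SD of 3 arrays. EDN1 and ADRA2A stand above and NPR3 below all 6 control arrays, while ADM, NPR1 and EDNRB overlap.

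Arrays of the groups did not overlap for 4 of 7 members in each comparison with the mimic: EDN1 and ADRA2A above, NPR3 and ECE1 below. Over all genes this held for 16.4% against the negative control (8.42% above and 8.01% below) and for 12.7% against mock (7.21% above and 5.44% below), and nothing is read from the members' count, since some were chosen by these changes. Between negative control and mock it held for 1 of 7, ECE1, which was higher in the negative control. Over all genes it held there for 8.1%, 4.77% higher and 3.33% lower, so 1 of 7 is near the background.

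The members also differed in their own spread. The pooled SD within groups was 0.15 for EDN1 and 0.14 for NPR3, larger than that of 64.1% and 57.4% of genes. It was 0.075 for ADRA2A and 0.079 for ADM, larger than that of 16.3% and 18.8% of genes. In the plot of changes the intervals of ADRA2A are accordingly narrower than those of EDN1.

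**Figure D2:**
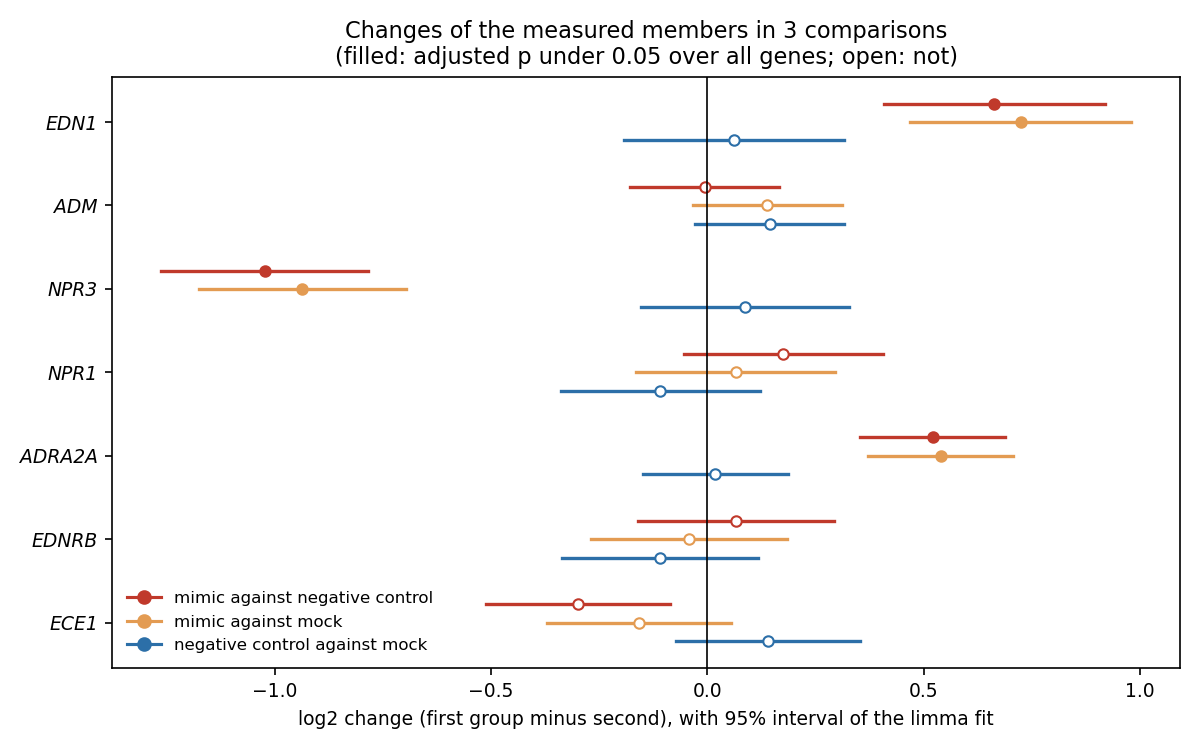
Log2 change (horizontal axis) of each measured gene with the 95% interval of the limma fit, for the mimic set against each control and for the controls set against each other. Filled points had an adjusted p under 0.05 over all genes. The intervals of EDN1, ADRA2A and NPR3 in both mimic comparisons and of ECE1 against the negative control lie away from 0, and all 7 intervals of negative control against mock include 0.

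Other genes of vasoactive signalling were taken from 5 lists, 69 measured of 96 listed. Against the negative control and against mock 0 rose and 0 fell in limma's test, beside 0.551% and 0.302% of all genes called. These counts of 0 are near those shares, here and for each list below, so nothing is read from them. Only 15 of the 69 were above the median intensity of all genes. An unadjusted p under 0.05 was found for 5 and 8 of the 69, beside 1871 and 1594 of all 14884 genes. The arrays did not overlap for 7 of the 69 in each comparison, which is 10.1% beside 16.4% and 12.7% of all genes. The median log2 change of the 69 was 0.037 against the negative control and -0.018 against mock, beside 0.011 and 0.012 over all genes. Between negative control and mock 0 passed, 3 had an unadjusted p under 0.05, beside 622 of all 14884 genes, and the median was -0.023.

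Of 19 measured peptide ligands 0 passed in either mimic comparison, with changes between -0.23 and 0.21 against the negative control. The other endothelins were among them: EDN2 had a change of 0.066 and EDN3 of 0.17 against the negative control, and of -0.13 and 0.11 against mock. The natriuretic peptides NPPA, NPPB and NPPC had changes of -0.020, -0.033 and -0.019 against the negative control and of -0.23, -0.072 and -0.067 against mock. The ligands with the lowest p were IAPP, the islet peptide amylin (0.21 ± 0.095, limma adjusted p = 0.417), and ADCYAP1, a neuropeptide that dilates vessels (-0.20 ± 0.098, adjusted p = 0.433). Only 1 of the 19, EDN2, was above the median intensity of all genes.

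Of 23 measured peptide receptors 0 passed, and 16 had a positive change against the negative control, with a median of 0.11. Against mock 11 were positive, with a median of -0.018. BDKRB2, the bradykinin B2 receptor, had the lowest p. Its log2 intensity was 6.21, 6.33 and 6.82 in mimic, 5.72, 5.82 and 5.67 in negative control, and 5.99, 5.92 and 5.74 in mock arrays. The mimic arrays were above all control arrays, mimic replicate 3 by the most. The change was 0.71 ± 0.14 (limma adjusted p = 0.0655) against the negative control and 0.57 ± 0.14 (adjusted p = 0.187) against mock. It passed against the negative control when dim genes were left out (adjusted p = 0.0231), and its 2 probesets disagreed: their mean had a change of 0.37 against the negative control and 0.28 against mock. Without mimic replicate 3 the changes were 0.53 and 0.39. TACR1, the substance P receptor, was next (0.22 ± 0.076, adjusted p = 0.286), at a low intensity.

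The 7 measured relatives of ADRA2A, other adrenergic receptors, had 0 passing, with changes between -0.12 and 0.25 against the negative control. ADRA1A (0.21 ± 0.084, limma adjusted p = 0.344) and ADRA2B (0.25 ± 0.12, adjusted p = 0.447) had the lowest p, both dim. ADRA2C, also an alpha-2 receptor and above the median intensity, had a change of 0.071 against the negative control and 0.18 against mock.

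Of 13 measured enzymes that process or degrade such peptides 0 passed, with changes between -0.10 and 0.13 against the negative control. PCSK5, a proprotein convertase (-0.10 ± 0.080, limma adjusted p = 0.653), and MME, the peptidase neprilysin (0.13 ± 0.11, adjusted p = 0.685), had the lowest p. FURIN, which makes the first cut in the endothelin-1 precursor, had a change of 0.054. Of 7 measured genes of cyclic GMP and nitric oxide signalling 0 passed. GUCA2B, which encodes uroguanylin, had the lowest p (0.37 ± 0.15, adjusted p = 0.351), followed by GUCA2A, which encodes guanylin (-0.27 ± 0.15, adjusted p = 0.503).

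**Figure D3:**
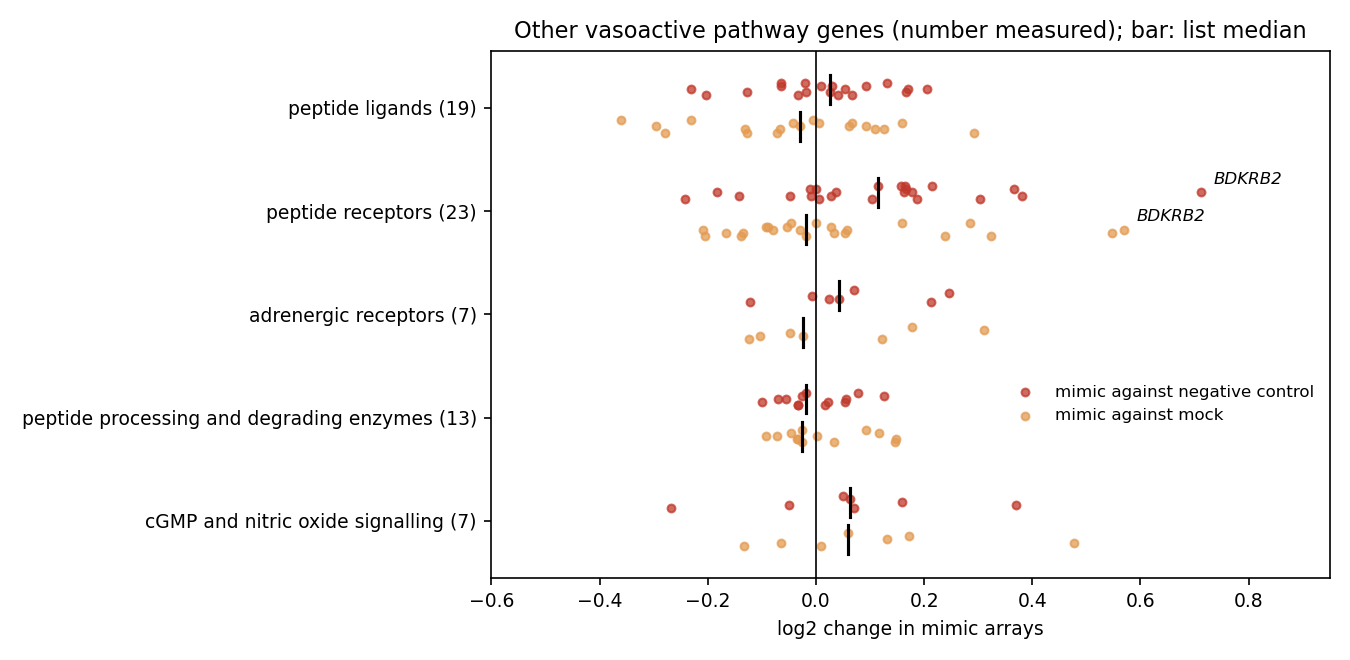
Log2 change of the 69 other vasoactive pathway genes (horizontal axis) by list, for mimic against negative control and mimic against mock. Each point is a gene, and black bars are list medians. Most points lie within 0.4 of 0, and BDKRB2 lies farthest to the right in both comparisons, beside NPY1R against mock.

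The genes whose pattern over the 9 arrays was most like that of EDN1 were sought among 6843 named genes above the median intensity. Likeness was the root mean square difference of the log2 values after each gene was centred on its own mean, and its median over these genes was 0.36. INSL4, an insulin-like peptide (0.11), ANKRD52 (0.13), SUSD3 (0.13), the glypican GPC6 (0.15) and the progesterone receptor gene PGR (0.15) were nearest. Their changes against the negative control were 0.63, 0.52, 0.58, 0.51 and 0.58. Among the members ADRA2A was the nearest to EDN1, at 0.19 and rank 29.

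For NPR3 the nearest genes were SLC49A4 (0.098), the centrosomal gene CEP20 (0.10), BLOC1S6 (0.11), the serine synthesis gene PSAT1 (0.18) and KCTD20 (0.18), beside a median of 0.49. Their changes were -0.94, -0.96, -0.90, -0.84 and -0.74 against the negative control. ECE1 was the member nearest to NPR3, at 0.39 and rank 565. These distances describe the 9 arrays, whose groups fix most of the pattern, and carry no test.

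**Figure D4:**
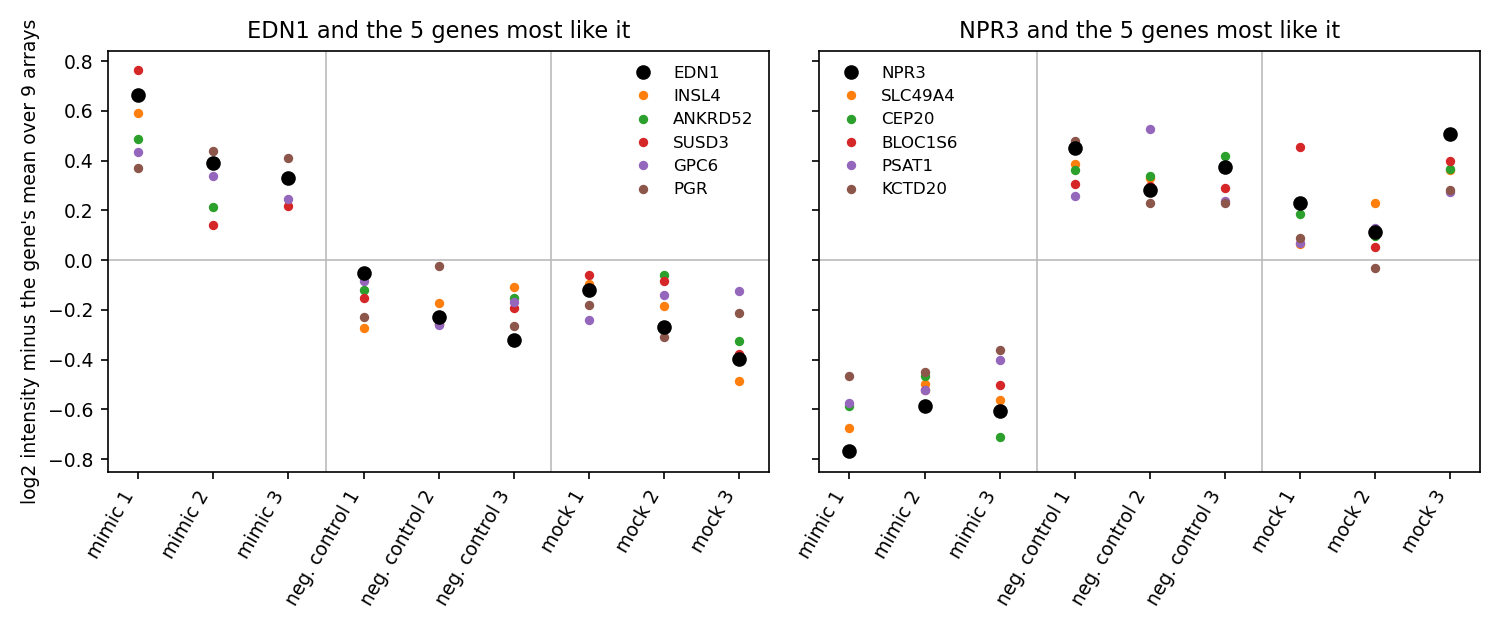
Log2 intensity minus each gene's mean (vertical axis) on the 9 arrays (horizontal axis) for EDN1 and NPR3 (black) and the 5 genes most like each (colours). In both panels the mimic arrays lie on 1 side of 0, and the 6 control arrays on the other in all but 1 value (KCTD20 in mock replicate 2).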

How the data were processed

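The deposited table holds log2 values of 53617 probesets on 9 arrays, which the authors made with RMA, per the submitters' processing notes; the sources used here give neither its version nor the probe annotation. Probesets were named through the platform's annotation (16098 with 1 symbol), updated by gene identifier through RefSeq (GRCh38.p14), and the probeset with the highest mean stood for each of 14884 genes. No further normalization or filter was applied. All genes were fitted in R 4.3.3 with limma 3.58.1 (lmFit, eBayes), 1 mean per group, with 6 residual degrees of freedom, two-sided p-values and Benjamini-Hochberg adjustment over all genes at 0.05. With 3 arrays a side, the smallest p of an exact permutation test is 0.1. The SE of a change comes from limma's moderated variance. The members and lists were chosen with earlier results of these data known. Genes named are the members, per pathway list any called gene and the 2 with the lowest p against the negative control, and the 5 most like EDN1 and NPR3; EDN2, EDN3, NPPA, NPPB, NPPC, ADRA2C and FURIN were added as relatives, partners or processing enzymes of the members. OXTR, NPY1R and the cell markers named were chosen outside that rule, after their values were seen. There were 16 alternatives: quantile normalization, a filter on dim genes, the mean over probesets, all probesets, a trended robust fit, the replicate block, only the groups compared, and leaving out each array. In simulated data for mimic against negative control over the 14884 genes, with changed genes above the median intensity and independent noise, the fit recovered 68.6% of log2 changes of 0.5 and 99.8% of changes of 1. Of the calls in that simulation 3.55% were false, and its shares hold for that setting only. The number of arrays limits the precision.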

Additional observations from a re-analysis of the deposited data

How the results depend on the processing

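EDN1, ADRA2A and NPR3 kept their direction in both mimic comparisons under all 16 alternatives, but this was largely fixed beforehand. Their mimic arrays lay on 1 side of all control arrays, so leaving out 1 array cannot turn the sign. Most other alternatives reuse the same values and return the same change, so nothing is read from the direction. EDN1 lost its call in both comparisons, against the negative control and mock in turn, under quantile normalization (0.65 and 0.68), with all probesets tested (0.66 and 0.72), in fits on only the groups compared (the same 0.66 and 0.72), and when 1 array was left out (0.56 to 0.74 and 0.62 to 0.80), except against the negative control without mock replicate 3. Its adjusted p over the alternatives lay between 0.0131 and 0.178 against the negative control and between 0.013 and 0.197 against mock. NPR3 was no longer called against the negative control with all probesets (-1.02) or without mimic replicate 1 (leave-one-out range -1.07 to -0.97). Against mock it was not called with all probesets, on only the groups compared, or with the replicate block (-0.94 in each), nor in 7 of 9 fits without 1 array (-1.02 to -0.82). Testing all probesets widens the adjustment, and leaving out arrays lowers the degrees of freedom.

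Counts of called genes moved more. Against the negative control, 82 became 263 without dim genes, 169 with a trended robust fit, 16 with the replicate block, 8 on only the groups compared, 6 with all probesets and 7 to 121 without 1 array. Against mock, 45 became 102 without dim genes, 3 with the replicate block, 1 on only the groups compared, 3 with all probesets and 1 to 10 without 1 array. In all alternatives 0 genes were called between negative control and mock. The count of called pathway genes became 1 (BDKRB2) without dim genes, against the negative control. The cause of the other moves was not tested. With the replicate block NPR3 against mock had an adjusted p = 0.0526, and ADRA2A 0.0542 and 0.0709. The main fit did not pair samples by replicate number, and whether the numbers mark pairs cannot be told. Deviations from the group means correlated above 0.1 in 2 of 9 same-numbered pairs (-0.061 to 0.13). EDN1 fell from replicate 1 to replicate 3 in every group. With the replicate block its limma adjusted p was 0.0224 against the negative control and 0.0313 against mock.

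Small uncalled changes turned sign without 1 array: EDN1 between negative control and mock (-0.012 to 0.13), ADRA2A there (-0.023 to 0.088, and -0.014 under quantile normalization), ADM against the negative control (-0.014 to 0.0074), NPR1 against mock (-0.046 to 0.14), and EDNRB against the negative control (-0.0086 to 0.17) and mock (-0.12 to 0.061).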

Other observations

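Among the other receptors of vasoactive peptides, 2 that were above the median intensity of all genes were picked out after their values were seen. OXTR, the oxytocin receptor, had a mean log2 intensity of 6.60 in mimic, 6.23 in negative control and 6.65 in mock arrays. Its log2 difference was 0.37 ± 0.15 against the negative control (limma adjusted p = 0.364) and -0.053 ± 0.15 against mock (adjusted p = 0.920). NPY1R, a receptor of neuropeptide Y, had means of 8.76 in mimic, 8.38 in negative control and 8.21 in mock arrays, with mimic arrays from 8.33 to 9.32. Its difference was 0.38 ± 0.22 against the negative control (adjusted p = 0.518) and 0.55 ± 0.22 against mock (adjusted p = 0.421).

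The repeated value of ADM is common in the deposited table: 33.7% of 14884 genes held 1 identical value on at least 3 of the 9 arrays, and 16.3% on at least 4. EDN1, NPR3, ADRA2A, NPR1 and ECE1 held 9 different values each.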
